A study of Mus musculus with 12 samples.

Results

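The genes described here are those of the mouse major histocompatibility complex (MHC) class II pathway: Ciita, the master coactivator of the family, H2-Aa, H2-Ab1 and H2-Eb1, which encode chains of the peptide-presenting molecules, H2-DMa, H2-DMb1, H2-DMb2, H2-Oa and H2-Ob, which encode the peptide-loading factors, and Cd74, which encodes the invariant chain. The 10 genes were given by name, out of 21627 protein-coding genes. For each gene every CpG from 5 kb outside one end to 5 kb outside the other (mm10) was taken if both strands together had at least 10 methylation calls in all 12 libraries. Such CpGs are called common here. Of the 10 genes, 9 had a common CpG, 259 in all, and 8 had the 3 or more that a test needed. H2-Ob had 1 common CpG, and none of the 77 CpGs listed for H2-Aa was common.

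The series measured DNA methylation by reduced representation bisulfite sequencing, which reads restriction fragments, mostly CpG-dense ones, and calls each CpG methylated or unmethylated. All groups were GFP-positive CMM cells, a mouse model of acute myeloid leukaemia with inv(16), injected by vein into C57BL/6 mice and sorted from the spleen. Dosing began once about 1% of the blood was leukaemic, with 3 intravenous doses on alternate days, and spleens were collected 1 day after the final dose. The PBS group received saline and was sorted for GFP alone. The CD11b-negative and CD11b-positive groups came from mice given CpG-STAT3dODN, a TLR9-binding CpG oligonucleotide linked to a STAT3 decoy, and were sorted as GFP-positive cells without or with the myeloid integrin CD11b. Each group had 4 libraries. Since PBS cells were sorted without regard to CD11b, effects of the drug and of choosing cells by CD11b cannot be told apart. Nothing in the labels ties the replicates of a group to different mice, and p-values therefore measure the spread between libraries, which may be technical. Only DNA was measured, so the level of the genes' RNA and the identity of the sorted cells by expressed markers were not analysed here. In sorted bulk cells, more cells with a methylated copy and more methylation per cell cannot be told apart.

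MHC class II molecules are pairs of an alpha and a beta chain that show peptides from endosomes to CD4-positive T cells, mainly on dendritic cells, B cells and macrophages. Their genes share a promoter module of X and Y boxes, to which RFX, CREB and NF-Y proteins bind, and Ciita, which does not bind DNA itself, is recruited to this assembly and switches the genes on together. Ciita is transcribed from alternative promoters in different cell types and on interferon-gamma, and DNA methylation of its promoters is one known way in which tumour cells keep the pathway silent.

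Replicate 2 of both treated groups stood apart. Libraries held 112671408 to 157223205 calls. Mean methylation over all 1052856 common CpGs was 31.0% to 31.7% in PBS, 32.1% to 32.5% in CD11b-negative replicates 1, 3 and 4 and 34.2% to 34.5% in CD11b-positive replicates 1, 3 and 4, against 35.5% in CD11b-negative 2 and 35.9% in CD11b-positive 2. These libraries also had the most calls on the Y chromosome, 1227 and 1279 per 1000000 autosomal calls (the Y share), against 619 to 779 in PBS, 733 to 876 in the other CD11b-negative and 879 to 969 in the other CD11b-positive libraries. The Y share was therefore higher in every CD11b-positive than in every PBS library, and what it reflects in these cells was not tested. The gene windows called between CD11b-positive and PBS are therefore also given without replicates 2 of the treated groups and with the Y share as a term, which ended each of these calls. Since the Y share of these groups did not overlap, the fit with this term cannot tell it apart from the group.

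Promoter sequences show what the method could and could not see at these genes. RefSeq (GRCm38.p6, the same build as mm10) gave 8 promoter windows of 7 of the genes, from 250 bases before to 50 after a start; Ciita, H2-Ab1 and Cd74 had no entry. The windows held 0 to 29 CpGs, with a median of 3, against a median of 7 over all 32851 windows of the table. The restriction motif CCGG was found in 2 of the 8 (52.8% of all windows). A single one, of H2-DMa, held any common CpG, 3 of its 29, which are in capitals below. The other sequences are shown with matches to the letters at the core of the Y box in capitals (CCAAT, or ATTGG on the opposite strand). A match is not shown to be a Y box. These letters were found in 7 of the 8 windows, 87.5%, against 37.4% of all windows of this length. H2-Eb1 has no CpG in this window, and H2-DMb1 and H2-Aa have 3 each that were not common to the libraries. Direct promoter methylation was thus measured for none of these 3. The windows are on the plus strand for H2-DMa (chr17:34122582-34122881), H2-DMb1 (chr17:34152941-34153240) and H2-Eb1 (chr17:34305617-34305916) and on the minus strand for H2-Aa (chr17:34287774-34288073).
H2-DMa: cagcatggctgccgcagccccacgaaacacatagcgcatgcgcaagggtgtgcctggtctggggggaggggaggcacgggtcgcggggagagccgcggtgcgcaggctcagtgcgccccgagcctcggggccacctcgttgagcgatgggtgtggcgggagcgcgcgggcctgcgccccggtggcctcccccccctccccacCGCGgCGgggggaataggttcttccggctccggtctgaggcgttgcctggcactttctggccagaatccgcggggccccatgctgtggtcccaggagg
H2-DMb1: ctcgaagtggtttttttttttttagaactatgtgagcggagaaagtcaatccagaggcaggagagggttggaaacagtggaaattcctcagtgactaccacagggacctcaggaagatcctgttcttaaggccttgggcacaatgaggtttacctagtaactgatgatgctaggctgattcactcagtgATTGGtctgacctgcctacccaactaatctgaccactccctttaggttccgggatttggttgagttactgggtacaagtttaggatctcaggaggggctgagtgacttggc
H2-Eb1: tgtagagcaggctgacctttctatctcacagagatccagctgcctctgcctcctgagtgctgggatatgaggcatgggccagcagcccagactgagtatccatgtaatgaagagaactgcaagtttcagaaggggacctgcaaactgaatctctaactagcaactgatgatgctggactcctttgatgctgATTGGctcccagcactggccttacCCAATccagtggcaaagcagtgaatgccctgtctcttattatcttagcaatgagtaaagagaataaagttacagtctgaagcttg
H2-Aa: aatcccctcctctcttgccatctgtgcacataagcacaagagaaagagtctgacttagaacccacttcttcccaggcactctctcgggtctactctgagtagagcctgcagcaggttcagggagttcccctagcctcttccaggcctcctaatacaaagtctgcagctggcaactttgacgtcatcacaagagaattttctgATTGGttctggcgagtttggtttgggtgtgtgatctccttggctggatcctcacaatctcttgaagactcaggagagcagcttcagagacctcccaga

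Treated CD11b-positive cells were first set against the untreated PBS cells, one of the contrasts named in the series' question. Methylation rose in the windows of 5 of the 8 tested genes, Ciita, H2-DMb1, H2-DMb2, H2-Oa and H2-Eb1, by 12.9 to 29.3 percentage points, and fell in none. A rise or fall here means a Benjamini-Hochberg adjusted p under 0.05 in a quasi-binomial test over all 17319 gene windows and a difference of group means of at least 10 points. Over all gene windows 21.6% were called, 18.1% of them higher and 3.55% lower as shares of the windows tested. The libraries of the groups did not overlap in 7 of the 8 genes (48.6% of all windows). The median difference of the 8 was 17.9 points, against 2.88 over all windows. These comparisons with all windows are not matched for the level in PBS. Among runs of common CpGs at most 300 bp apart with a PBS mean of 20% to 80%, 66.8% were called higher genome-wide. The 8 windows are not separate either, since all 23 common CpGs of H2-DMb2 also lie in the window of H2-DMa or H2-DMb1. Each of the 5 was also called without CD11b-positive 2, where 16.8% of all windows were called.

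Ciita lies on chromosome 16 at 10480014 to 10531064. Its window held 31 common CpGs of 445 listed, 24 in the gene body and 7 beyond the upper end, with 3089 to 5115 calls per library. The share of methylated calls was 35.7%, 42.4%, 39.6% and 39.7% in PBS libraries 1 to 4, 53.1%, 75.7%, 44.7% and 43.3% in CD11b-negative 1 to 4 and 61.3%, 75.4%, 60.1% and 59.2% in CD11b-positive 1 to 4. Every CD11b-positive library lay above every PBS library, and the CD11b-negative libraries lay above PBS too, with replicate 2 at the level of its CD11b-positive partner. Means were 39.3% ± 2.78 in PBS, 54.2% ± 15.0 in CD11b-negative and 64.0% ± 7.62 in CD11b-positive (SD, n = 4 each). CD11b-positive exceeded PBS by 24.7 points (quasi-binomial test, adjusted p = 0.00193), and by 20.9 points without replicate 2 (adjusted p = 0.000546). With the Y share as a term the difference was 10.8 points and was not called (adjusted p = 0.125).

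**Figure D1:**
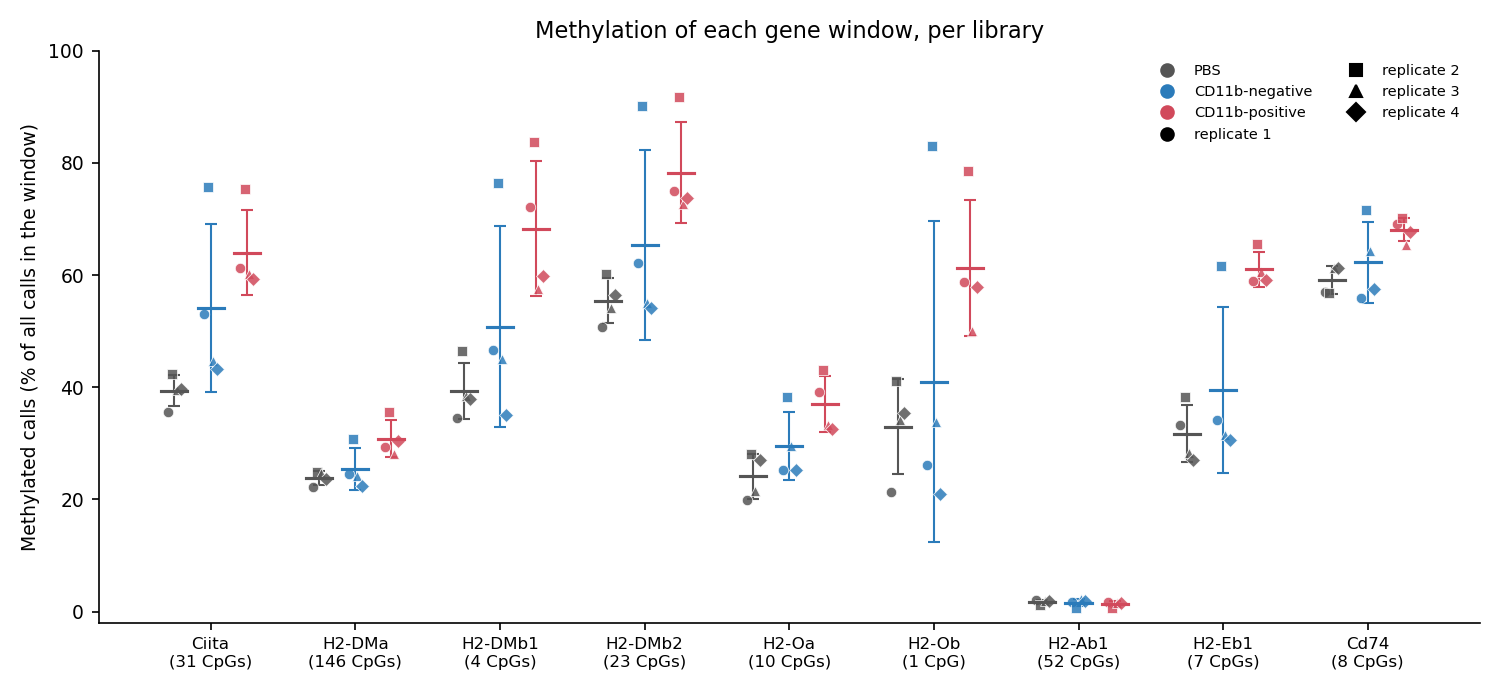
Share of methylated calls (y axis, %) in the window of each of the 9 genes with a common CpG (x axis), 1 point per library, with colour for the group, a marker for the replicate number and a bar at the group mean. CD11b-positive libraries lie above all PBS libraries except at H2-Ab1, where all 12 libraries are under 3%, and replicate 2 is the highest CD11b-negative library in 8 of the 9 genes.

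Common CpGs of Ciita fell into 13 stretches, runs of CpGs at most 300 bp from the next. The table of genes used here gives no strand for Ciita, so distances are counted from its end with the lower coordinate. No CpG of the lower flank or of the first 8303 bp of the gene was common, so that end of the gene is not described by these data. All 13 stretches had a higher mean in CD11b-positive than in PBS, by 7.14 to 46.5 points (median 23.7), and in all 13 the libraries of the groups did not overlap. The 4 stretches with at least 3 CpGs were tested among 80415 stretches genome-wide, and all 4 rose. Genome-wide 38.9% of stretches were called, 35.4% higher and 3.46% lower, and 59.8% did not overlap. These shares cover only stretches with at least 3 CpGs, as 4 of the 13 had.

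The first covered stretch of Ciita (chr16:10488317-10488376, 3 CpGs) averaged 29.6% ± 4.84 in PBS, 36.0% ± 12.7 in CD11b-negative and 44.0% ± 9.72 in CD11b-positive cells, a rise of 14.4 points (quasi-binomial test, adjusted p = 0.0289). Without replicate 2 the rise was 10.7 points and not called (adjusted p = 0.0531). Its 3 CpGs lay within 60 bp but differed. The first stood at 49.98% in PBS and 51.7% in CD11b-positive cells, and the third rose from 22.3% to 52.9% (adjusted p = 0.00671 over all single CpGs). Further into the gene, the pair of CpGs 18470 bp from the lower end (chr16:10498484-10498524) was nearly unmethylated in PBS, at 3.54%, 13.5%, 8.57% and 8.90% in libraries 1 to 4. It stood at 23.7%, 60.8%, 10.8% and 14.0% in CD11b-negative and at 47.5%, 57.7%, 38.2% and 33.8% in CD11b-positive libraries 1 to 4. Every CD11b-positive value was well above the highest PBS value, and CD11b-negative 2 exceeded them all. The next covered CpG, at 10502161, lay 22147 bp from the lower end and was low in every library. It had 2.37% ± 0.848 in PBS and 9.51% ± 2.05 in CD11b-positive, which at 7.14 points fell short of the 10 needed for a call (adjusted p = 0.00378).

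The 2 single CpGs with the largest differences of the gene lay in its middle. At 10512139 the PBS libraries 1 to 4 had 12.4%, 23.3%, 16.7% and 14.0%, CD11b-negative 37.4%, 74.1%, 24.0% and 19.7%, and CD11b-positive 45.3%, 85.1%, 62.7% and 59.5%. The mean rose by 46.5 points (adjusted p = 0.00133), on 74 to 131 calls per library. At 10503947 it rose by 40.9 points, from 14.4% ± 6.16 to 55.3% ± 18.1 (adjusted p = 0.00189). Between them, CpGs with more methylation in PBS gained less. The CpG at 10507441 rose from 63.7% ± 7.53 to 87.4% ± 8.53, and the pair at chr16:10511671-10511702 had 61.8% ± 2.02 in PBS and 81.1% ± 6.42 in CD11b-positive. This pair joined unlike CpGs, the first rising from 46.1% to 74.0% and the second from 77.6% to 88.1%.

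Toward the upper end, neighbouring CpGs of Ciita again had unlike levels. In the pair at chr16:10516723-10516786, the first CpG rose from 7.08% to 39.4% (adjusted p = 0.00632) while the second had 89.7% in PBS and 89.6% in CD11b-positive cells, on as few as 11 calls in a library. The 3 CpGs at chr16:10523792-10523933 rose together as a stretch, from 63.3% ± 4.33 to 82.2% ± 8.42 (18.8 points, adjusted p = 0.0253), although none of the 3 was called alone. The call was lost without PBS 1 (adjusted p = 0.0700), PBS 3 (0.0697) or CD11b-positive 1 (0.0632). The 8 CpGs at chr16:10530508-10530746 overlap the last part of Ciita and its neighbour Dexi. PBS libraries 1 to 4 had 63.5%, 66.7%, 66.8% and 69.5% there, and CD11b-positive libraries 84.9%, 88.6%, 80.6% and 80.3%. The stretch rose by 16.99 points (adjusted p = 0.00236), and 3 of its CpGs rose alone. Among these, 10530618 rose most, from 41.7% to 70.0%, while 10530706 had 95.9% and 95.2%.

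The 7 common CpGs beyond the upper end of Ciita all lay within Dexi, a small gene next to it, so they belong to both neighbourhoods. The 4 CpGs at chr16:10532515-10532689 had 28.7%, 39.1%, 37.6% and 39.1% in PBS 1 to 4, 45.7%, 82.6%, 36.6% and 37.6% in CD11b-negative 1 to 4 and 63.0%, 83.9%, 62.2% and 58.5% in CD11b-positive 1 to 4. The rise over PBS was 30.8 points (adjusted p = 0.00285). The pair at chr16:10534789-10534800 averaged 17.2% ± 3.28 in PBS and 55.4% ± 14.4 in CD11b-positive, and the CpG at 10535644 had 34.6% ± 6.70 and 62.7% ± 19.5. Over the whole window 29 of the 31 CpGs had a higher mean in CD11b-positive than in PBS, and 19 rose as single CpGs, where 16.8% of all 1052856 were called (13.3% higher). No CpG of the window fell.

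**Figure D2:**
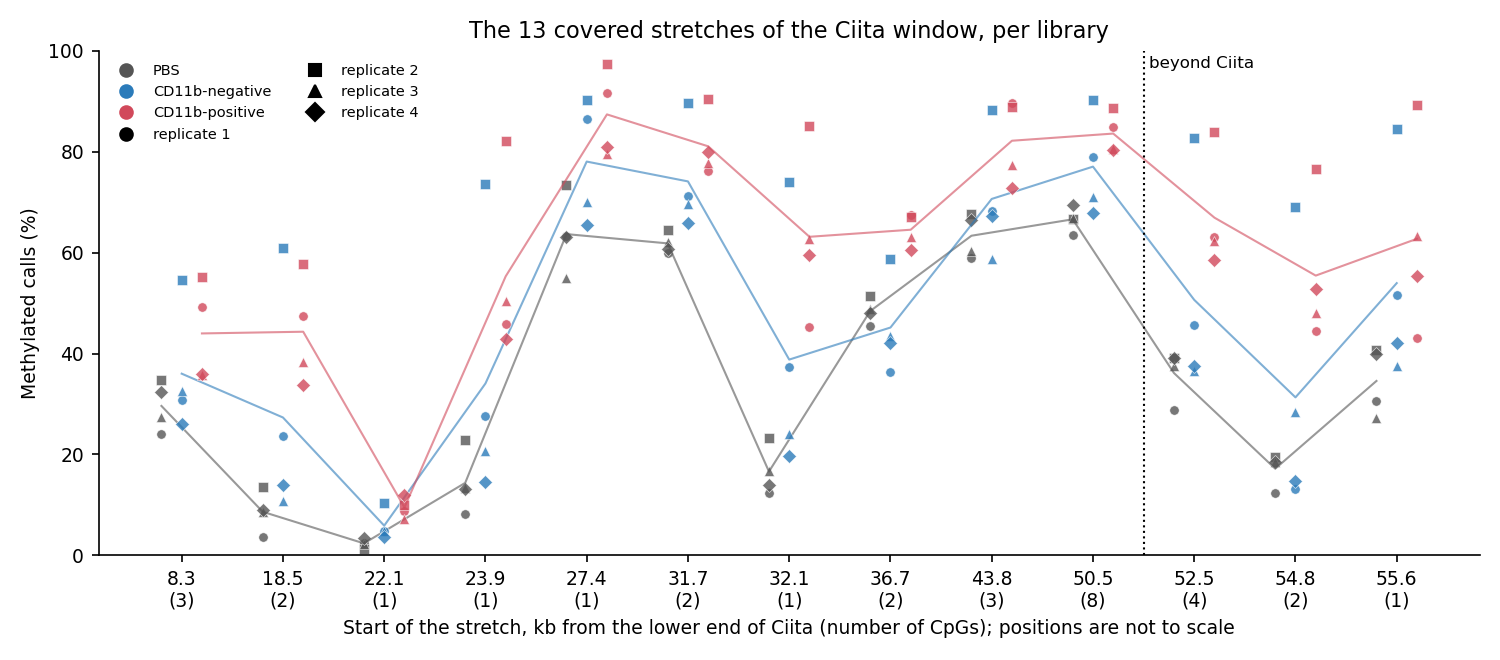
Share of methylated calls (y axis, %) in the 13 stretches of the Ciita window, ordered along the gene from its lower end (x axis, distance in kb with the number of CpGs, not to scale), 1 point per library and a line through each group's means. The line of CD11b-positive lies above that of PBS in all 13 stretches, and CD11b-negative 2 is the highest CD11b-negative library in all 13.

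The H2-DM genes encode the dimer that removes the invariant chain's fragment and edits the peptides of class II molecules, and they lie side by side on chromosome 17. H2-DMb1 (34153191 to 34160229) had 4 common CpGs on 532 to 804 calls. PBS libraries 1 to 4 had 34.5%, 46.4%, 38.4% and 38.0% methylated calls, CD11b-negative 46.6%, 76.5%, 45.0% and 34.99%, and CD11b-positive 72.1%, 83.7%, 57.6% and 59.8%. The CD11b-positive libraries lay above all PBS libraries, and CD11b-negative 2 was higher than 3 of them. The rise was 29.0 points, from 39.3% ± 5.07 to 68.3% ± 12.1 (quasi-binomial test, adjusted p = 0.00616), and all 4 CpGs rose. It was 23.8 points without CD11b-positive 2 (adjusted p = 0.00623), and 5.72 points and not called with the Y share as a term (adjusted p = 0.699). The largest single rise was at 34159695, from 19.2% to 61.7%. The 3 CpGs near its upper end (chr17:34159695-34159874) rose by 28.6 points as a stretch (adjusted p = 0.00567).

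H2-DMb2 (34143229 to 34151553) had no common CpG within the gene. Its 23 common CpGs lay in the 5 kb on either side, 22 shared with the window of H2-DMa and 1 with that of H2-DMb1, so its result is not separate from theirs. The shares were 50.8%, 60.3%, 54.2% and 56.5% in PBS 1 to 4, and then for CD11b-negative 62.2%, 90.2%, 55.1% and 54.0%, and CD11b-positive 75.0%, 91.7%, 72.6% and 73.8%. Means rose from 55.4% ± 3.99 to 78.3% ± 9.01, by 22.8 points (adjusted p = 0.00348), and CD11b-negative 2 again stood beside CD11b-positive 2. Without CD11b-positive 2 the rise was 18.4 points (adjusted p = 0.00104), and with the Y share as a term the difference was 2.72 points and was not called (adjusted p = 0.754). Both stretches that hold its CpGs next to H2-DMa rose. The first covers the upper end of H2-DMa and lies partly outside the window of H2-DMb2 (chr17:34137835-34138524, 14 CpGs), from 55.7% ± 4.03 to 77.9% ± 8.36 (adjusted p = 0.00295), and the second lies between the genes (chr17:34139507-34139880, 14 CpGs), from 60.5% ± 3.31 to 81.2% ± 8.35 (adjusted p = 0.00349). Within the first, the CpG at 34138471 rose from 20.3% to 62.5%, and that at 34138417, a short way before it, had 91.6% and 90.5%.

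H2-DMa (34119693 to 34139101) had the most common CpGs, 146, on 12295 to 19723 calls. Its window averaged 23.9% ± 1.22 in PBS, 25.4% ± 3.69 in CD11b-negative and 30.9% ± 3.27 in CD11b-positive, and the 6.99 points between PBS and CD11b-positive were too few for a call (adjusted p = 0.00526). This mean joined unlike DNA. A CpG-dense part over the lower end, shared with the neighbouring gene Brd2, held 111 CpGs in 5 stretches with at most 3.10% methylation in any library, including the 3 promoter CpGs printed in capitals above, and no stretch of it was called. The 2 stretches at the upper end described for H2-DMb2 rose. The 4 CpGs at chr17:34126105-34126310 were highly methylated, with 85.9% ± 1.78 in PBS and 92.5% ± 2.46 in CD11b-positive, 6.58 points apart and not called (adjusted p = 0.0186).

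H2-DMa also held the 1 common CpG of the family that fell. At 34129383, PBS libraries 1 to 4 had 30.6%, 18.6%, 24.3% and 17.7%, CD11b-negative 14.6%, 1.81%, 19.9% and 19.5%, and CD11b-positive 11.1%, 3.49%, 15.3% and 12.1%. Replicate 2 was the lowest library of both treated groups, where at the other genes it was mostly the highest. The mean fell by 12.3 points between PBS and CD11b-positive (adjusted p = 0.00461), where 3.48% of all CpGs were called lower. Lower means without a call were found at 20 further CpGs of H2-DMa, 32 of the 52 of H2-Ab1, 2 of Ciita and 1 of Cd74. At the CpG 2 bp further the means were 16.8% and 9.89% (adjusted p = 0.0374, under 10 points). At 34136723 the mean was 35.6% ± 5.91 for PBS and 26.6% ± 13.3 for CD11b-positive (adjusted p = 0.486), with 6.15% and 6.78% in replicates 2 of the treated groups.

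H2-Oa and H2-Ob encode the chains of H2-O, the inhibitor of H2-DM. H2-Oa (34092379 to 34095234) had 10 common CpGs on 782 to 1642 calls. Methylation of PBS libraries 1 to 4 was 19.8%, 28.0%, 21.4% and 27.0%, CD11b-negative 25.3%, 38.2%, 29.4% and 25.2%, and CD11b-positive 39.2%, 43.0%, 33.2% and 32.6%. The CD11b-positive libraries lay above all of PBS, by a margin smaller than at H2-DMb1 or H2-Eb1. The rise was 12.9 points (24.1% ± 4.06 to 37.0% ± 5.01, adjusted p = 0.0193), and it was lost without PBS 1 (11.5 points, adjusted p = 0.0524) and with the Y share as a term (5.01 points, adjusted p = 0.656). Without CD11b-positive 2 it was 10.9 points (adjusted p = 0.0335). The 9 CpGs inside the gene (chr17:34094513-34094814) rose from 15.7% ± 4.11 to 28.3% ± 5.02 (adjusted p = 0.00828). H2-Ob (34238905 to 34245908) had 1 common CpG, at 34242675, on 34 to 139 calls. PBS libraries 1 to 4 had 21.2%, 41.1%, 34.1% and 35.5%, CD11b-negative 26.1%, 83.1%, 33.8% and 20.9%, and CD11b-positive 58.8%, 78.5%, 50% and 57.8%. As a single CpG it rose by 28.3 points (adjusted p = 0.0173). The value of 58.8% rests on 34 calls, with a 95% Wilson interval of 42.2% to 73.6%. At the other 8 genes the widest such interval of a library was ± 0.329 points (H2-Ab1) to ± 4.74 points (H2-Eb1), and these intervals cover counting error only.

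Among the genes of the presenting molecules, H2-Eb1 and H2-Ab1 differed most in level. H2-Eb1 (34305867 to 34316674) encodes the H2-E beta chain and had 7 common CpGs in 1 stretch inside the gene (chr17:34314320-34314484), 8453 bp from the start of the gene and its promoter printed above. For PBS 1 to 4 the values were 33.2%, 38.3%, 28.3% and 27.1%, CD11b-negative 34.1%, 61.6%, 31.5% and 30.6%, and CD11b-positive 58.9%, 65.5%, 60.5% and 59.2%. The CD11b-negative libraries 1, 3 and 4 were inside the PBS range, CD11b-negative 2 was not, and all CD11b-positive libraries were far above it. The rise was 29.3 points, from 31.7% ± 5.11 to 61.0% ± 3.05 (adjusted p = 0.00223 as a gene, 0.000840 as a stretch), and 6 of its 7 CpGs rose. The last CpG of the stretch, 34314484, rose most, by 42.1 points, from 10.3% to 52.4%. Without CD11b-positive 2 the gene rose by 27.8 points (adjusted p = 0.00231). With the Y share as a term its difference was 23.8 points, the largest of the 5 genes that rose, and was not called (adjusted p = 0.168).

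H2-Ab1 (34263227 to 34269418), which encodes the H2-A beta chain, held a single stretch of 52 CpGs inside the gene (chr17:34264578-34264996), 1351 bp from its lower end, on 6179 to 10521 calls. PBS libraries 1 to 4 had 2.13%, 1.19%, 1.81% and 1.83%, CD11b-negative 1.63%, 0.651%, 2.31% and 1.85%, and CD11b-positive 1.62%, 0.611%, 1.47% and 1.60%. The stretch was almost unmethylated in all 12 libraries, and replicate 2 of both treated groups was lowest. CD11b-positive differed from PBS by -0.413 points (adjusted p = 0.213), and at this level a fall of 10 points was not possible. No value of H2-Aa, which encodes the H2-A alpha chain, was measured.

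Cd74 on chromosome 18 (60803849 to 60812652), encodes the invariant chain that fills the groove of new class II molecules and guides them to endosomes. It had 8 common CpGs on 528 to 813 calls. Over these the PBS libraries had 57.0%, 56.9%, 61.2% and 61.3%, CD11b-negative 55.9%, 71.6%, 64.3% and 57.4%, and CD11b-positive 69.2%, 70.2%, 65.3% and 67.8%. All CD11b-positive libraries lay above PBS, but the difference of 9.02 points was not called (59.1% ± 2.51 and 68.1% ± 2.13, adjusted p = 0.0826). Its 3 stretches differed. The 5 CpGs in the middle of the gene (chr18:60808008-60808153) rose from 50.5% ± 1.45 to 65.9% ± 4.87 (adjusted p = 0.0113). The CpG 886 bp from the lower end had 14.7% ± 2.05 in PBS and 14.5% ± 3.23 in CD11b-positive, and the 2 CpGs in the flank, within Tcof1, had 91.4% ± 1.13 and 94.3% ± 1.29.

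The 33 stretches of all 9 genes together show where these differences lay. Of the 17 stretches tested, 10 rose and none fell. All 9 tested stretches with a PBS mean between 20% and 80% rose, by 14.4 to 30.8 points, where 66.8% of all such stretches did. The tenth was that of H2-Oa, at 15.7% in PBS, where 31.2% of the stretches between 5% and 20% rose. The stretches were also split by CpG density, at a limit that lay in a gap of these same stretches (20.3 to 25.1). The 6 stretches with at least 25 listed CpGs within 250 bp (163 CpGs, in H2-DMa and H2-Ab1) had at most 3.10% in any library, and of stretches under 5% in PBS 0.922% were called genome-wide. Their PBS means were at most 1.74%, against 2.37% to 91.4% in the less dense stretches, so density and PBS level cannot be told apart for them. Of the 27 less dense stretches (96 CpGs), 24 had a higher mean in CD11b-positive. In 24 the groups did not overlap, among them the CpGs of H2-DMa at 34129383, where CD11b-positive was lower. Many of these stretches were too short to be tested. Of the 17 tested stretches, dense ones included, 11 did not overlap, against 59.8% of all tested stretches.

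**Figure D3:**
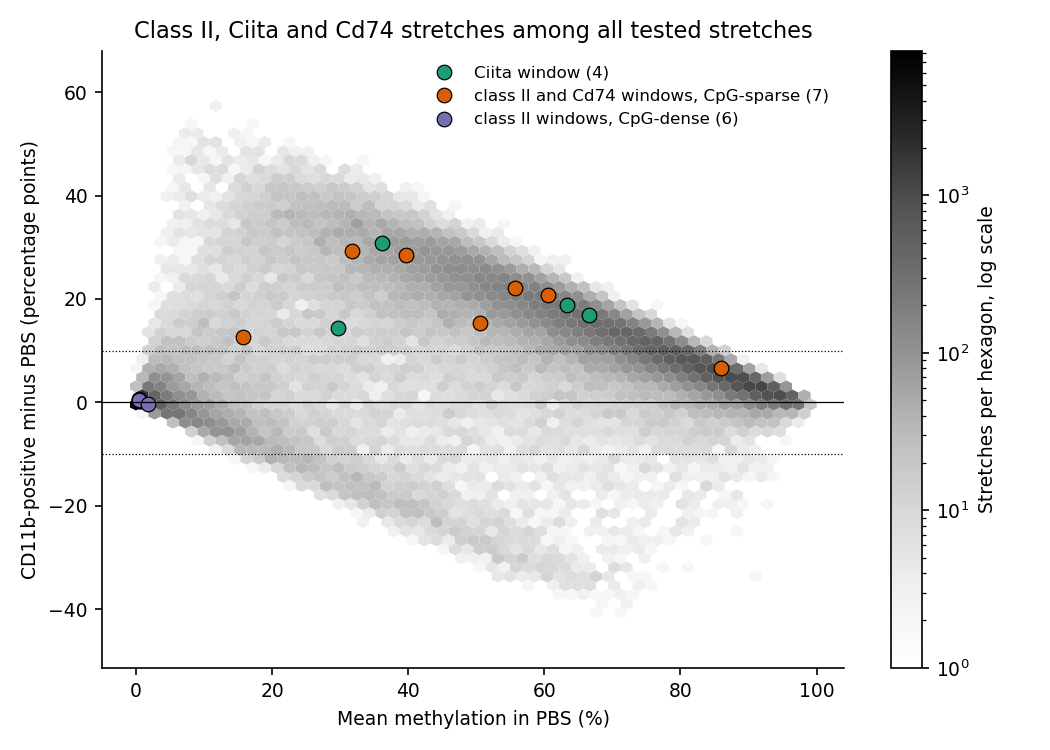
Difference of CD11b-positive minus PBS (y axis, percentage points) against the PBS mean (x axis, %), with the 80415 tested stretches as grey hexagons (log scale of number) and the 17 of these genes as points coloured by gene and CpG density, dotted lines at a difference of 10 points. The 9 points between 20% and 80% in PBS lie 14.4 to 30.8 points above 0, and the 6 CpG-dense ones of H2-DMa and H2-Ab1 sit near 0 on both axes.

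Genes of other blood cells moved in the same direction. Pooled over 7 B cell genes, methylation was 26.7% to 29.7% in PBS and 32.5% to 37.7% in CD11b-positive, and 3 of the 7 rose. Over 7 T cell genes it was 29.9% to 35.8% and 43.9% to 49.8%, and 4 of the 7 rose. Of all gene windows 18.1% rose. With the Y share as a term none of the 5 class II calls and none of the 10 stretch calls held, and of all 17319 gene windows and 80415 stretches 1 and 189 were called. The Y share and the group cannot be told apart in this fit.

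Treated cells without CD11b were then set against PBS, to see whether the bulk of treated leukaemia cells also differed. No gene or stretch of the family was called. Of the 8 genes, 7 had a higher mean in CD11b-negative, and the median difference was 6.58 points (0.165 over all windows). Ciita was 14.8 points higher (adjusted p = 0.751), and was the only one of the 8 whose groups did not overlap (5.84% of all windows). Without CD11b-negative 2 its mean was 47.0% and the difference 7.68 points (adjusted p = 0.408), and with the Y share as a term it was 0.509 points (adjusted p = 0.941). With the share of calls on 8 single-copy Y genes as the term instead, the difference was 7.91 points (quasi-binomial test, adjusted p = 0.388). At the other 7 tested genes the CD11b-negative mean without replicate 2 lay within 2.87 points of that of PBS, as at H2-Eb1 (32.1% against 31.7%), H2-DMb2 (57.1% against 55.4%) and Cd74 (59.2% against 59.1%). The CpG of H2-Ob was lower, at 26.9% against 33.0%. The quasi-binomial test called 0 of 17319 gene windows (0%), with 894 at an unadjusted p under 0.05, none of them a class II gene. limma on the means over CpGs called 0 as well. Of the stretches, 0 of 80415 were called (0%), with 8319 at an unadjusted p under 0.05. Among those was 1 of the family, the highly methylated 4 CpGs of H2-DMa at 34126105, with 91.9% ± 2.699 against 85.9% ± 1.78.

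Within treated mice, the series asked for the CD11b-positive subset against the CD11b-negative bulk. Fitted without regard to the replicate numbers, no gene of the family was called (0 of 17319 windows, 0%), with 3548 windows and 2 of the 8 genes at an unadjusted p under 0.05, and limma called 0. The differences were 9.82 points for Ciita (adjusted p = 0.266), 21.6 for H2-Eb1 (adjusted p = 0.242) and 17.5 for H2-DMb1 (adjusted p = 0.252). No stretch was called either (0 of 80415, 0%), with 8970 stretches and 2 of the 17 at an unadjusted p under 0.05, and limma called 1 stretch, outside the family.

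CD11b-positive and CD11b-negative libraries of the same number deviated together to some degree, and were also compared as pairs. The labels give the numbers only, and CD11b-positive 3 and 4 correlated better with a CD11b-negative library of another number. PBS 2, from other mice, correlated at 0.746 with CD11b-negative 2 and 0.727 with CD11b-positive 2, so a shared number need not mean a shared mouse. The calls with a block given below rest on this assumed pairing. H2-DMb2 was higher in CD11b-positive in all 4 pairs, by 12.8, 1.504, 17.5 and 19.7 points, and H2-Eb1 by 24.8, 3.88, 29.0 and 28.6 points. Ciita differed by 8.22, -0.285, 15.4 and 15.9 points and H2-DMb1 by 25.5, 7.21, 12.6 and 24.8 points. Pair 2 had the smallest difference at each of these 4 genes, and at Ciita it was negative. With the replicate number as a block, H2-DMb2 rose by 13.1 points (quasi-binomial test, adjusted p = 0.0499), where 0.606% of gene windows were called. H2-DMa (5.46 points, adjusted p = 0.0567), Ciita (10.2 points, adjusted p = 0.0759), H2-DMb1 (17.8 points, adjusted p = 0.0759) and H2-Eb1 (21.3 points, adjusted p = 0.0813) were not called. Of the 17 stretches 5 rose with the block, where 14.7% of all were called: that of H2-Eb1 (21.3 points, adjusted p = 0.00901), that of H2-DMb1 (18.2 points, adjusted p = 0.0140), both at the upper end of H2-DMa (12.3 points each, adjusted p = 0.00260 and 0.00157) and the one of Ciita within Dexi (16.7 points, adjusted p = 0.00866).

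Without replicates 2 of both groups, Ciita (13.2 points, adjusted p = 0.0201), H2-DMb1 (20.96 points, adjusted p = 0.0398), H2-DMb2 (16.7 points, adjusted p = 0.0105) and H2-Eb1 (27.5 points, adjusted p = 0.0110) rose in CD11b-positive over CD11b-negative, where 14.1% of all windows were called. In 8 of the 9 measured genes the CD11b-negative libraries 1, 3 and 4 were all below every CD11b-positive library (45.3% of all windows), and in all 9 CD11b-negative 2 was above the lowest of them.

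**Figure D4:**
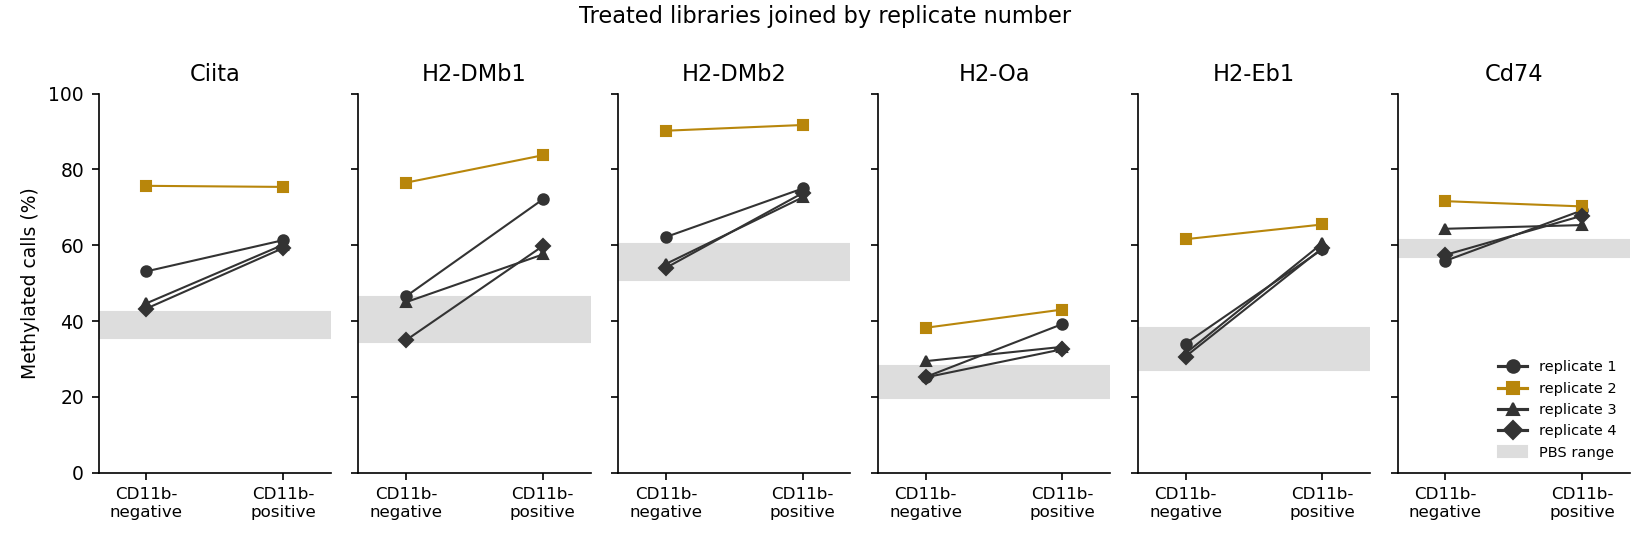
Share of methylated calls (y axis, %) in CD11b-negative and CD11b-positive libraries joined by replicate number, 1 panel for each of 6 genes, with replicate 2 in gold and the range of the PBS libraries as a grey band. The line of replicate 2 is the flattest at Ciita, H2-DMb1, H2-DMb2 and H2-Eb1, where the other lines rise by 8.22 to 29.0 points.

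Most other genes of the pathway were not called. Of 28 genes for the factors that act with Ciita, the interferon-gamma route to it and the processing of antigen, 27 were measured, and 1 rose between PBS and CD11b-positive, none fell and 26 were not called, where 21.6% of all windows were called. The median difference was 1.46 points, against 2.88 over all windows, and 6 genes were under 5% in every library. The gene that rose was Ctss, encoding cathepsin S, the protease that trims the invariant chain, from 65.5% ± 3.35 to 83.5% ± 6.59 (18.0 points, adjusted p = 0.00344). The RFX genes, whose proteins bind the X box, had 11.03% and 14.4% (Rfx5), 20.9% and 20.6% (Rfxap) and 21.9% and 23.4% (Rfxank) in PBS and CD11b-positive, with no call. The NF-Y genes, whose proteins bind the Y box, had 5.87% and 6.55% (Nfya), 0.541% and 0.701% (Nfyb) and 1.73% and 4.38% (Nfyc), also not called. No gene of this list was called in the other 2 comparisons, neither by the test without a block nor, between the treated groups, with it (Ctss, 10.5 points, adjusted p = 0.0630). Without both replicates 2, Ctss (13.8 points, adjusted p = 0.0131) and Kat2b, encoding an acetyltransferase that acts with Ciita (10.1 points, adjusted p = 0.0384), were called higher in CD11b-positive than in CD11b-negative. In this setting 14.1% of all windows were called.

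The class II genes varied together across the libraries. As a description over 12 libraries, in each of which the genes share depth and the mix of cells, Pearson's r with Ciita was 0.982 for H2-DMb2, 0.958 for H2-DMb1, 0.920 for H2-DMa, 0.909 for H2-Eb1, 0.908 for H2-Oa, 0.825 for Cd74 and -0.803 for the nearly unmethylated H2-Ab1. The median over all gene windows was 0.571. Without replicates 2 of the treated groups r was 0.956 for H2-DMb2, 0.682 for Cd74 and -0.447 for H2-Ab1, and the median was 0.482. The windows most like Ciita among 15387 with at least 10 common CpGs included those of Pi16 (r = 0.996), Fcgbp (0.996), Lect2 (0.996) and Tlr5 (0.996), none of these 4 in the pathway and all above every class II gene.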

How the data were processed

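The deposited files hold, for each CpG cytosine and strand, the counts of methylated and unmethylated calls of 1 library, without scaling. According to the submitters' processing notes, mm10 was the build and reads went through cutadapt 2.7, Trim Galore 0.6.4, methylKit 1.20.0 and Bismark. For Bismark no version, and for duplicate reads no treatment, is given in the sources used here. Copies of a molecule can therefore be counted more than once, and this can make counting error look smaller than it is.

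Strands were summed, and CpGs with at least 10 calls in all 12 libraries were kept. Calls were summed over gene windows (gene and 5 kb outside each end) and over stretches (CpGs at most 300 bp apart), each with at least 3 common CpGs. Gene positions came from RefSeq GRCm38.p6. Methylated against unmethylated calls of the 8 libraries compared were fitted by a quasi-binomial logistic model with an F test. Its dispersion was moderated by the method of limma's squeezeVar (limma 3.58.1) between limits of mean methylation of 5%, 20%, 80% and 95%, with a floor of 1. P-values were adjusted over all features of a kind, and single CpGs were tested in the same way. The procedure was tested on simulated data. Python 3.11.15, numpy 2.4.6, scipy 1.17.1 and R 4.3.3 were used.

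The CD11b-positive and CD11b-negative libraries of the same number were treated as pairs, since their deviations from the group means correlated at 0.245, 0.908, 0.598 and 0.664 over gene windows. The labels give the numbers only, and CD11b-positive 3 and 4 correlated better with a CD11b-negative library of another number. All genes given were named, with all Ciita stretches, the called stretches of the others, the RFX and NF-Y genes, called genes of the pathway list and the 5 windows most like Ciita, of which 1 is not reported here. Single CpGs were named where they were highest or lowest in a stretch or differed most, after their values were seen. The members and lists were chosen with earlier results of these data known. Alternatives were other minimum calls and CpGs, gene bodies alone, stretches with gaps of at most 100 bp, a fit of all 12 libraries, a replicate block, the Y share as a term, limma on mean percentages and each library left out. Leaving out replicates 2 of both treated groups and a share of calls on 8 single-copy Y genes were added after the data were seen.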

Additional observations from a re-analysis of the deposited data

Results flagged for a closer look

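In groups of 4 libraries, 11 values of these genes or their stretches had 1 library far from the other 3, by a gap above Dixon's 95% critical value for the group's range. This was so in 11 of 126 groups looked at. Chance gives about 1 in 20 for independent groups, but these share libraries and CpGs, so no excess over chance can be read from the count. Of the 11 values, 6 were of CD11b-positive 2, 3 of CD11b-negative 2 and 2 of PBS 1, and gene windows that hold a single stretch counted under both.

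CD11b-positive 2 was highest at Ciita, with 75.4% against 59.2% to 61.3% in the other libraries, at H2-DMb2 (91.7% against 72.6% to 75.0%) and at the H2-DMa stretch that starts at 34139507 (93.7% against 76.4% to 77.6%). It was lowest at H2-Ab1 and its stretch at 34264578, with 0.611% against 1.47% to 1.62% for both, and at the H2-DMa CpG at 34136723 (6.78% against 32.0% to 34.9%). CD11b-negative 2 was highest at H2-Eb1 and its stretch at 34314320, with 61.6% against 30.6% to 34.1% for both, and at the H2-DMa stretch at 34119705 (2.94% against 0.343% to 0.575%). PBS 1 was lowest at the Ciita stretches at 10532515 (28.7% against 37.6% to 39.1%) and 10534789 (12.3% against 18.5% to 19.4%).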

How the results depend on the processing

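The 5 class II genes and 10 stretches called between CD11b-positive and PBS became 3 and 2 with at least 10 common CpGs per feature (fewer members tested), 0 and 0 with the Y share as a term, and 0 and 0 with the share of 8 single-copy Y genes. Ciita then differed by 10.8 points (adjusted p = 0.125) and 10.7 points (adjusted p = 0.203), and the Ciita stretch at 10488317 by 0.422 and -0.766 points. Leaving out 1 library at a time gave 4 to 5 genes, 8 to 10 stretches and 20.9 to 26.3 points for Ciita, called each time. In a fit of all 12 libraries or without PBS 1, PBS 3, CD11b-positive 1 or CD11b-positive 2 the stretch at 10488317 was not called, nor that at 10523792 without PBS 1, PBS 3 or CD11b-positive 1 or with the block. Cd74 was called by limma on mean percentages (10.2 points, adjusted p = 0.00444).

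Between CD11b-positive and CD11b-negative the 0 genes and 0 stretches became 1 and 5 with the replicate block and 4 and 5 without both replicates 2. Without CD11b-negative 2 they were 4 and 7, with Ciita at 16.98 points (adjusted p = 0.0190), and without any other single library 0 and 0. Leaving out 1 library gave 0 to 4 genes, 0 to 7 stretches and 6.03 to 16.98 points for Ciita, and without both replicates 2 Ciita differed by 13.2 points (adjusted p = 0.0201). With the Y share as a term the counts were 0 and 0, and Ciita differed by 4.67 points (quasi-binomial test, adjusted p = 0.381). With the single-copy Y share it differed by -1.04 points (adjusted p = 0.853). The lowest difference under any alternative was -2.85 points for H2-DMb2, 3.36 for H2-DMb1 and 12.5 for H2-Eb1. Between CD11b-negative and PBS no gene or stretch of the family was called under any alternative. For PBS the pairing by number was mixed. PBS 1, 2 and 3 correlated with the CD11b-negative library of the same number at 0.480, 0.746 and 0.547, and PBS 4 at -0.187. With CD11b-positive the correlations were -0.0978 to 0.727. What the numbers share was not tested. With the block 5 genes and 9 stretches of the family were called between CD11b-positive and PBS. The cause of these changes was not tested.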
